A study of Mus musculus with 8 samples.

Results

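Cyclins, cyclin-dependent kinases (CDKs) and the genes of DNA replication were examined in the ovaries of obese mice given pioglitazone or its vehicle. The set held 44 genes, chosen by name for their part in the cell cycle. Of these, 41 had a probe of their own among the 18069 genes that the annotation named, and each was read by its brightest probe over the 8 arrays. Ccnb1 and Cdkn1b had no probe in this annotation, and the only Tyms probe is shared with a pseudogene, so these 3 genes were not analysed here. All 41 genes with a probe passed the filter on dim probes, Ccnd1 only through its vehicle mean and Mcm7 only through its pioglitazone mean. Of the 41, 36 lay at or above the limit of sensitivity of 0.2 relative intensity units in all 8 mice. Ccnd1, Ccnd3, Ccne2, Mcm7 and Plk1 had at least 1 value under that limit.

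The mice were female Lethal Yellow (LY) heterozygotes, C57BL/6J Ay/a, an obese and insulin-resistant strain in which agouti protein is made in most tissues. A group of 4 mice received pioglitazone in DMSO by daily gavage, and the other group of 4 received DMSO alone. Treatment lasted 60 days, from 120 to 180 days of age, and pioglitazone is an agonist of the nuclear receptor PPARγ. The sample labels give a dose of 0.1 mg per day, and the text of the study names a different one. Both groups carried the same Ay allele, and lean untreated mice were not analysed here. RNA of the ovary of each mouse was hybridised to 1 CodeLink Whole Mouse Genome Bioarray, so each value is that of 1 animal.

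CDKs drive the cell cycle when bound by a cyclin. D-type cyclins with Cdk4 or Cdk6, and E-type cyclins with Cdk2, inactivate the retinoblastoma protein and release E2F factors, which switch on genes for replication. Origins are licensed by loading of the MCM helicase, and entry into mitosis follows activation of Cdk1 by cyclin B and CDC25 phosphatases. In the ovary most dividing cells are granulosa cells of growing follicles. Cells that have become luteal leave the cycle, and oocytes rest in meiotic prophase.

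Values are background-corrected linear intensities in which the median probe of an array stands at 1, called relative intensity units. Levels of different probes are not on a common scale, so each gene is compared only with itself. The sums of marker lists given below add such probes, so the brightest markers weigh most in them. The arrays held 36227 probes, of which 82.5% to 83.9% reached 0.2 units, and pairs of arrays correlated at 0.949 to 0.987 over probes. Markers of the expected cell types were present in every mouse. At least 0.2 units were reached in all 8 mice by 13 of 14 measured granulosa cell markers, 9 of 9 luteal cell markers, 17 of 18 oocyte markers and 9 of 9 markers of theca and stroma. The other lists reached it for 6 of 8 adipocyte, 7 of 8 macrophage, 7 of 9 lymphocyte, 4 of 8 oviduct and 1 of 2 red blood cell markers. Inhbb of the granulosa list and Cd3e of the lymphocyte list lay under 0.2 units in all 8 mice. Pioglitazone-treated mouse 1 was the lowest of its group for many of the cell cycle genes. Values without it are given where it moved a printed log2 fold change by over 1.5 times, and also for Bub1, which moved less. In whole ovary, fewer cells of a type and less RNA per cell cannot be told apart.

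Regulatory sequence upstream of 6 genes is shown because the results below turn on them. Cdk4, Cdkn2a and Cdc25a had the smallest p-values of the set. Mcm6 and Plk1 had the widest spread between pioglitazone-treated mice among the replication and the mitotic genes, and Mcm3 spread little. Each line gives the 120 bases before a RefSeq start site, build GRCm38.p6, written in the direction of transcription. Capitals mark an E2F site (TTTCGCGC, TTTGGCGC, TTTCCCGC or TTTGCCGC), a cell cycle homology region (TTTGAA or TTTAAA) or a CCAAT box (CCAAT), searched on both strands.
Cdk4, chr10:127063415-127063534, plus strand: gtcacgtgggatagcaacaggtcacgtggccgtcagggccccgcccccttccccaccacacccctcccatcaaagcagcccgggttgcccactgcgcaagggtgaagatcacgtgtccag
Cdkn2a, chr4:89294620-89294739, minus strand: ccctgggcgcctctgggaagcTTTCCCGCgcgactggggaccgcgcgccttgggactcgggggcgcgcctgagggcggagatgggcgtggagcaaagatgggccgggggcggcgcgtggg
Cdc25a, chr9:109875459-109875578, plus strand: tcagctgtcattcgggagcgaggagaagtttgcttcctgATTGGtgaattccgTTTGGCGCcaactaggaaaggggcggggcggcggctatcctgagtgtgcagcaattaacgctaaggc
Mcm6, chr1:128359706-128359825, minus strand: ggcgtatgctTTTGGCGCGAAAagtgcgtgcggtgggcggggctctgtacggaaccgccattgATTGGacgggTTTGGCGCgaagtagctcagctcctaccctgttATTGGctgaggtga
Mcm3, chr1:20820313-20820432, minus strand: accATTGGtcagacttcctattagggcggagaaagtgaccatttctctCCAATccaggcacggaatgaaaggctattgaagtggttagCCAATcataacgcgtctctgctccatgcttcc
Plk1, chr7:122159315-122159434, plus strand: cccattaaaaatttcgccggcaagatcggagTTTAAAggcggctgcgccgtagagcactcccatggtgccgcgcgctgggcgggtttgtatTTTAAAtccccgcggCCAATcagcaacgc
No motif of these kinds lies in the Cdk4 stretch. The Cdkn2a stretch belongs to the more upstream of its 2 start sites in the table and holds an E2F site. The 120 bases before its other start site hold no motif of these kinds. The Cdc25a stretch holds an E2F site and a CCAAT box. Mcm6 has 3 E2F matches, of which 2 overlap, and 2 CCAAT boxes. Mcm3 has 3 CCAAT boxes and no E2F match. Plk1 has a pair of cell cycle homology regions and, nearer the start site, a CCAAT box. Over the 250 bases before the start, E2F sites were found in 8 of the 36 members with a promoter in the table (22.2%), against 2.16% of 27025 genes. Cell cycle homology regions were found in 13 members (36.1%), against 28.1% of all genes, and CCAAT boxes in 25 (69.4%), against 37.5%. The 8 members with an E2F match were Cdk1, Cdk2, Cdkn2a, Cdc25a, Cdc6, Mcm5, Mcm6 and Mcm7. Their spread between pioglitazone-treated mice ran from 1.11-fold for Cdc25a to 18.4-fold for Mcm6, and a link of motif and spread was not tested. A match is a description of these letters and not evidence of binding.

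The first comparison asked whether these genes differed in ovaries of pioglitazone-treated mice. No member passed limma with Benjamini-Hochberg adjustment over all 30634 probes tested, and the lowest adjusted p of a member was 0.837. No probe of the whole array passed either, with a lowest adjusted p of 0.599. At an unadjusted p under 0.05, Cdkn2a was higher and Cdk4 was lower with pioglitazone. These 2 of 41 members (4.88%) stand beside 1685 of all probes (5.5%), of which 603 were higher (1.97%) and 1082 lower (3.53%), so the share of members called was near that of the array. With the replicate number of the labels as a block, 3 members (7.32%) and 2635 probes (8.6%) were called. In no member, read by its brightest probe, did the 4 pioglitazone-treated mice lie all above or all below the 4 vehicle-treated mice. Over all probes 1.46% were separated in this way with higher values after pioglitazone and 3.13% with lower values.

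The log2 fold changes of the members, pioglitazone over vehicle, had a median of -0.005, against -0.03 over all probes. They were positive for 19 members and negative for 22. For 34 of 41 members the 95% interval lay inside a 2-fold change in either direction, and the median interval extended 0.47 to either side on the log2 scale. The 7 members whose interval reached 2-fold were Ccnd1, Ccnd3, Ccne2, Cdkn1a, Mcm6, Mcm7 and Plk1.

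**Figure D1:**
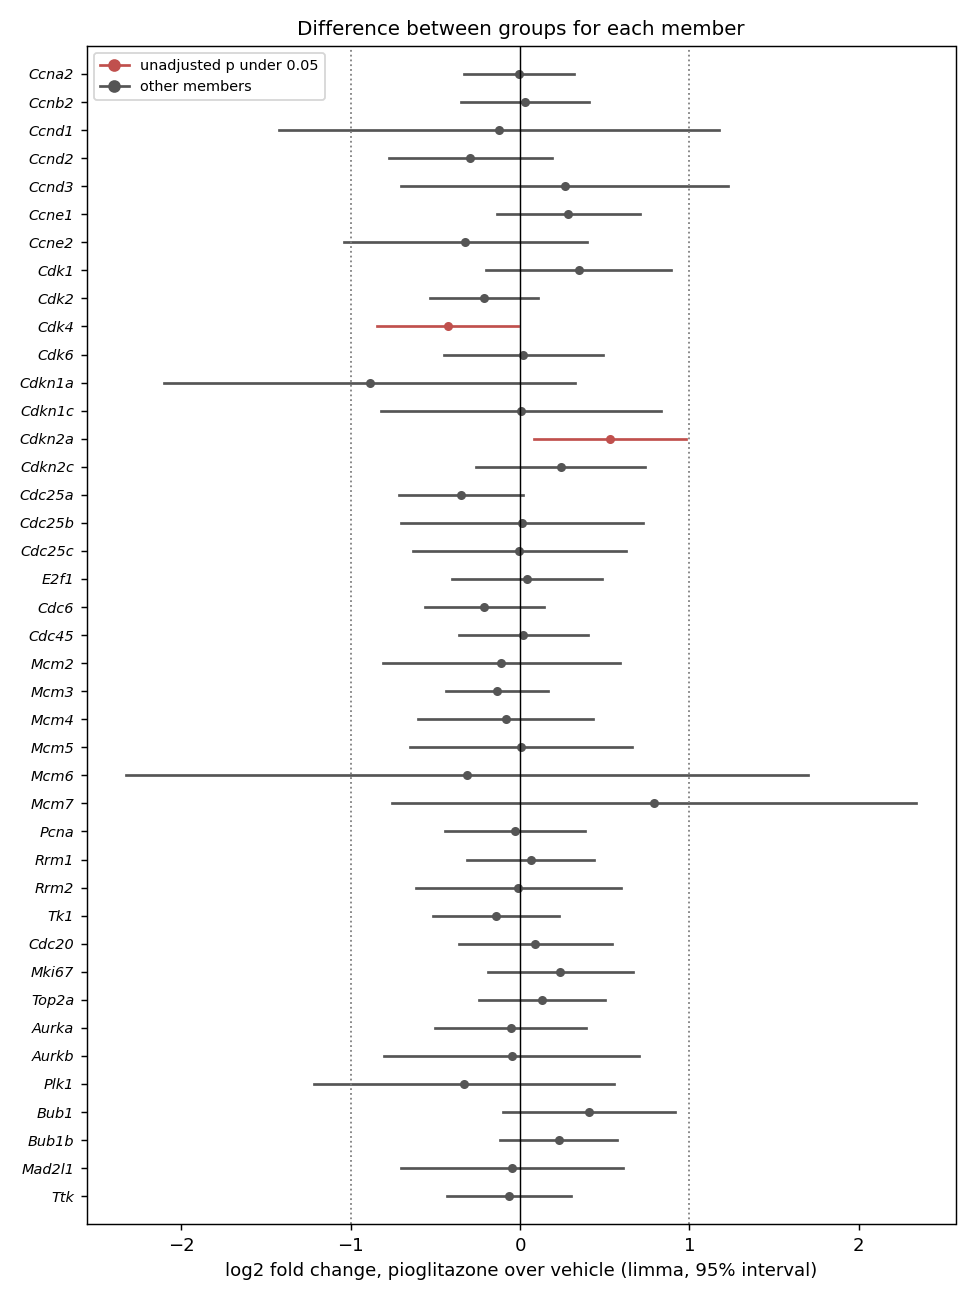
Log2 fold change of each of the 41 members, pioglitazone over vehicle, from limma with its 95% interval. Red marks Cdk4 and Cdkn2a, with an unadjusted p under 0.05; dotted lines mark a 2-fold change, which the intervals of 34 members do not reach.

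Among the CDKs, Cdk4, the kinase of the D-type cyclins that starts G1 progression, read 52.5, 45.7, 42.0 and 35.0 units in pioglitazone-treated mice 1 to 4, against 57.7, 68.4, 65.0 and 45.1 units in vehicle-treated mice 1 to 4. Vehicle-treated mice 1, 2 and 3 lay above every pioglitazone-treated mouse, and vehicle-treated mouse 4 lay among the pioglitazone values. Cdk4 averaged 43.8 ± 7.32 units with pioglitazone and 59.0 ± 10.3 units with vehicle (SD, n = 4 each). Its log2 fold change was -0.43 (SE 0.19, limma, unadjusted p = 0.0459, adjusted p = 0.837). Enumeration of all 70 ways to divide the mice gave p = 0.0857 in a 2-sided exact permutation test. This call was lost after quantile normalization (log2 fold change -0.28) and cyclic loess normalization (-0.31). It was also lost without any 1 of pioglitazone-treated mice 2, 3 and 4 or vehicle-treated mice 1, 2 and 3.

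Cdk1, the kinase of mitotic entry, read 31.1, 26.6, 26.7 and 32.9 units with pioglitazone, against 24.3, 31.6, 13.9 and 26.0 units with vehicle. Vehicle-treated mouse 3 stood low, and the other values of both groups overlapped. Cdk2, which acts at the start of S phase, read 1.24, 1.13, 1.08 and 1.07 units with pioglitazone, against 1.23, 1.28, 1.57 and 1.18 units with vehicle. Vehicle-treated mouse 3 was highest, and pioglitazone-treated mouse 1 lay among the other vehicle values. The log2 fold changes were 0.35 (SE 0.24) for Cdk1 and -0.21 (SE 0.14) for Cdk2, and without vehicle-treated mouse 3 they were 0.11 for Cdk1 and -0.12 for Cdk2. Cdk6, a partner of D-type cyclins like Cdk4, read 4.22, 3.07, 2.67 and 3.04 units with pioglitazone, against 3.80, 2.31, 3.71 and 3.07 units with vehicle. The groups overlapped throughout. A second, dimmer Cdk6 probe gave 0.669, 0.569, 0.454 and 0.380 units with pioglitazone, against 0.434, 0.467, 0.503 and 0.486 units with vehicle, and neither of these was called. A further Cdk6 probe, too dim to be tested, lay at 0.128 to 0.266 units with pioglitazone and 0.0159 to 0.121 units with vehicle, ranges that did not overlap.

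The CDK inhibitors held the only member called as higher. Cdkn2a encodes p16Ink4a, which blocks Cdk4 and Cdk6, and from another start site p19Arf, which stabilises p53; which of them the probe reads was not resolved here. It read 0.576, 0.546, 0.697 and 0.943 units with pioglitazone, against 0.439, 0.405, 0.484 and 0.554 units with vehicle, levels only a few times the limit of sensitivity. Pioglitazone-treated mice 3 and 4 were highest, and vehicle-treated mouse 4 lay between pioglitazone-treated mice 2 and 1. The means were 0.690 ± 0.181 units with pioglitazone and 0.471 ± 0.0643 units with vehicle (SD, n = 4 each), and the log2 fold change was 0.53 (SE 0.20, limma, unadjusted p = 0.0258, adjusted p = 0.837). The 2-sided exact permutation test gave p = 0.0571. The call was lost without pioglitazone-treated mouse 3 or 4 or vehicle-treated mouse 1 or 2, and the log2 fold change was lowest, at 0.37, without pioglitazone-treated mouse 4.

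Cdkn1a encodes p21, the inhibitor induced by p53 and by cell cycle exit. It read 1.31, 1.07, 1.62 and 0.915 units with pioglitazone, against 1.27, 6.18, 3.35 and 0.925 units with vehicle. Vehicle-treated mice 2 and 3 stood above all others, and vehicle-treated mice 1 and 4 lay within the pioglitazone range. The log2 fold change of -0.89 (SE 0.54) was the most negative of the set and did not pass the test (limma, unadjusted p = 0.133), and the vehicle group spanned 6.68-fold against 1.77-fold with pioglitazone. Single mice moved it widely, to -1.31 without vehicle-treated mouse 4 (unadjusted p = 0.0256) and to -0.40 without vehicle-treated mouse 2 (unadjusted p = 0.373). The summed luteal markers were also highest in vehicle-treated mice 2 and 3 within their group. With pioglitazone they were again highest in mice 2 and 3, where Cdkn1a read 1.07 and 1.62 units, against 1.31 and 0.915 units in mice 1 and 4. The part of luteal tissue in this result was not tested.

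Cdkn2c, which encodes p18Ink4c, read 7.35, 8.51, 9.45 and 6.64 units with pioglitazone, against 6.78, 9.10, 4.54 and 7.20 units with vehicle. All pioglitazone values lay inside the vehicle range except that of mouse 3. Its second probe spread more widely, with 0.508, 1.91, 2.06 and 0.927 units with pioglitazone against 0.709, 1.47, 1.14 and 0.932 units with vehicle. Cdkn1c, which encodes p57 and is an imprinted gene, read 5.22, 4.13, 3.12 and 3.98 units with pioglitazone, against 8.42, 3.70, 2.14 and 3.95 units with vehicle. Vehicle-treated mouse 1 had the highest value and vehicle-treated mouse 3 the lowest, with the whole pioglitazone group between them.

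The 7 cyclins gave no call, and their median log2 fold change was -0.005. Ccnd2, the D-type cyclin that mouse granulosa cells need to proliferate in response to follicle-stimulating hormone, read 15.9, 27.0, 26.9 and 28.8 units with pioglitazone, against 25.1, 30.7, 35.2 and 27.8 units with vehicle. Pioglitazone-treated mouse 1 stood low and the other 7 mice overlapped, for a log2 fold change of -0.29 (SE 0.21), or -0.10 without that mouse. Ccne1, the cyclin of S phase entry, read 0.845, 1.27, 1.39 and 1.34 units with pioglitazone, against 0.870, 1.06, 0.915 and 1.08 units with vehicle. Again pioglitazone-treated mouse 1 was the lowest of all mice, while the other 3 of its group lay above every vehicle-treated mouse. The log2 fold change of Ccne1 was 0.28 (SE 0.19, unadjusted p = 0.162) with all mice and 0.45 (unadjusted p = 0.0150) without pioglitazone-treated mouse 1.

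Ccne2, its close relative, read 0.133, 0.288, 0.314 and 0.125 units with pioglitazone, against 0.283, 0.216, 0.213 and 0.281 units with vehicle. Pioglitazone-treated mice 1 and 4 were under the limit of sensitivity, and the group enclosed the vehicle range. Ccnb2, a B-type cyclin of mitosis, lay at 22.7 to 31.1 units with pioglitazone and 21.8 to 29.2 units with vehicle, and Ccna2, the cyclin of S phase and G2, at 8.96 to 10.3 units with pioglitazone and 8.06 to 11.2 units with vehicle, so both overlapped fully. Ccnd1 and Ccnd3, the other D-type cyclins, lay near the limit of sensitivity, Ccnd1 at 0.0879 to 0.232 units with pioglitazone and 0.0391 to 0.320 units with vehicle and Ccnd3 at 0.238 to 0.574 units with pioglitazone and 0.131 to 0.480 units with vehicle. A second Ccnd3 probe stayed at or below 0.229 units.

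CDC25 phosphatases remove inhibitory phosphates from CDKs. Cdc25a, which acts from G1 into S phase, read 1.77, 1.96, 1.85 and 1.94 units with pioglitazone, against 2.47, 2.90, 2.47 and 1.84 units with vehicle. The 4 pioglitazone-treated mice lay within 1.11-fold of each other and below vehicle-treated mice 1 to 3, but vehicle-treated mouse 4 fell among them. The log2 fold change was -0.35 (SE 0.16, limma, unadjusted p = 0.0581). It passed in 3 of 21 alternatives, without vehicle-treated mouse 4 (-0.48, unadjusted p = 0.0122) and with the methods' t-test or an intensity trend. The other 18 left it uncalled, among them array weights (-0.24, limma, unadjusted p = 0.168). Cdc25b, of the G2 to mitosis transition, read 0.746, 1.70, 2.26 and 1.60 units with pioglitazone, against 1.13, 1.39, 1.76 and 1.59 units with vehicle, and Cdc25c, a further mitotic phosphatase, read 0.284, 0.442, 0.604 and 0.307 units with pioglitazone, against 0.269, 0.444, 0.497 and 0.396 units with vehicle. The groups overlapped for both genes, with Cdc25b low in pioglitazone-treated mouse 1. E2f1, the transcription factor upstream of many of these genes, read 2.39, 3.02, 3.31 and 2.85 units with pioglitazone, against 2.69, 3.65, 2.06 and 3.02 units with vehicle, and the pioglitazone values all lay inside the vehicle range.

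**Figure D2:**
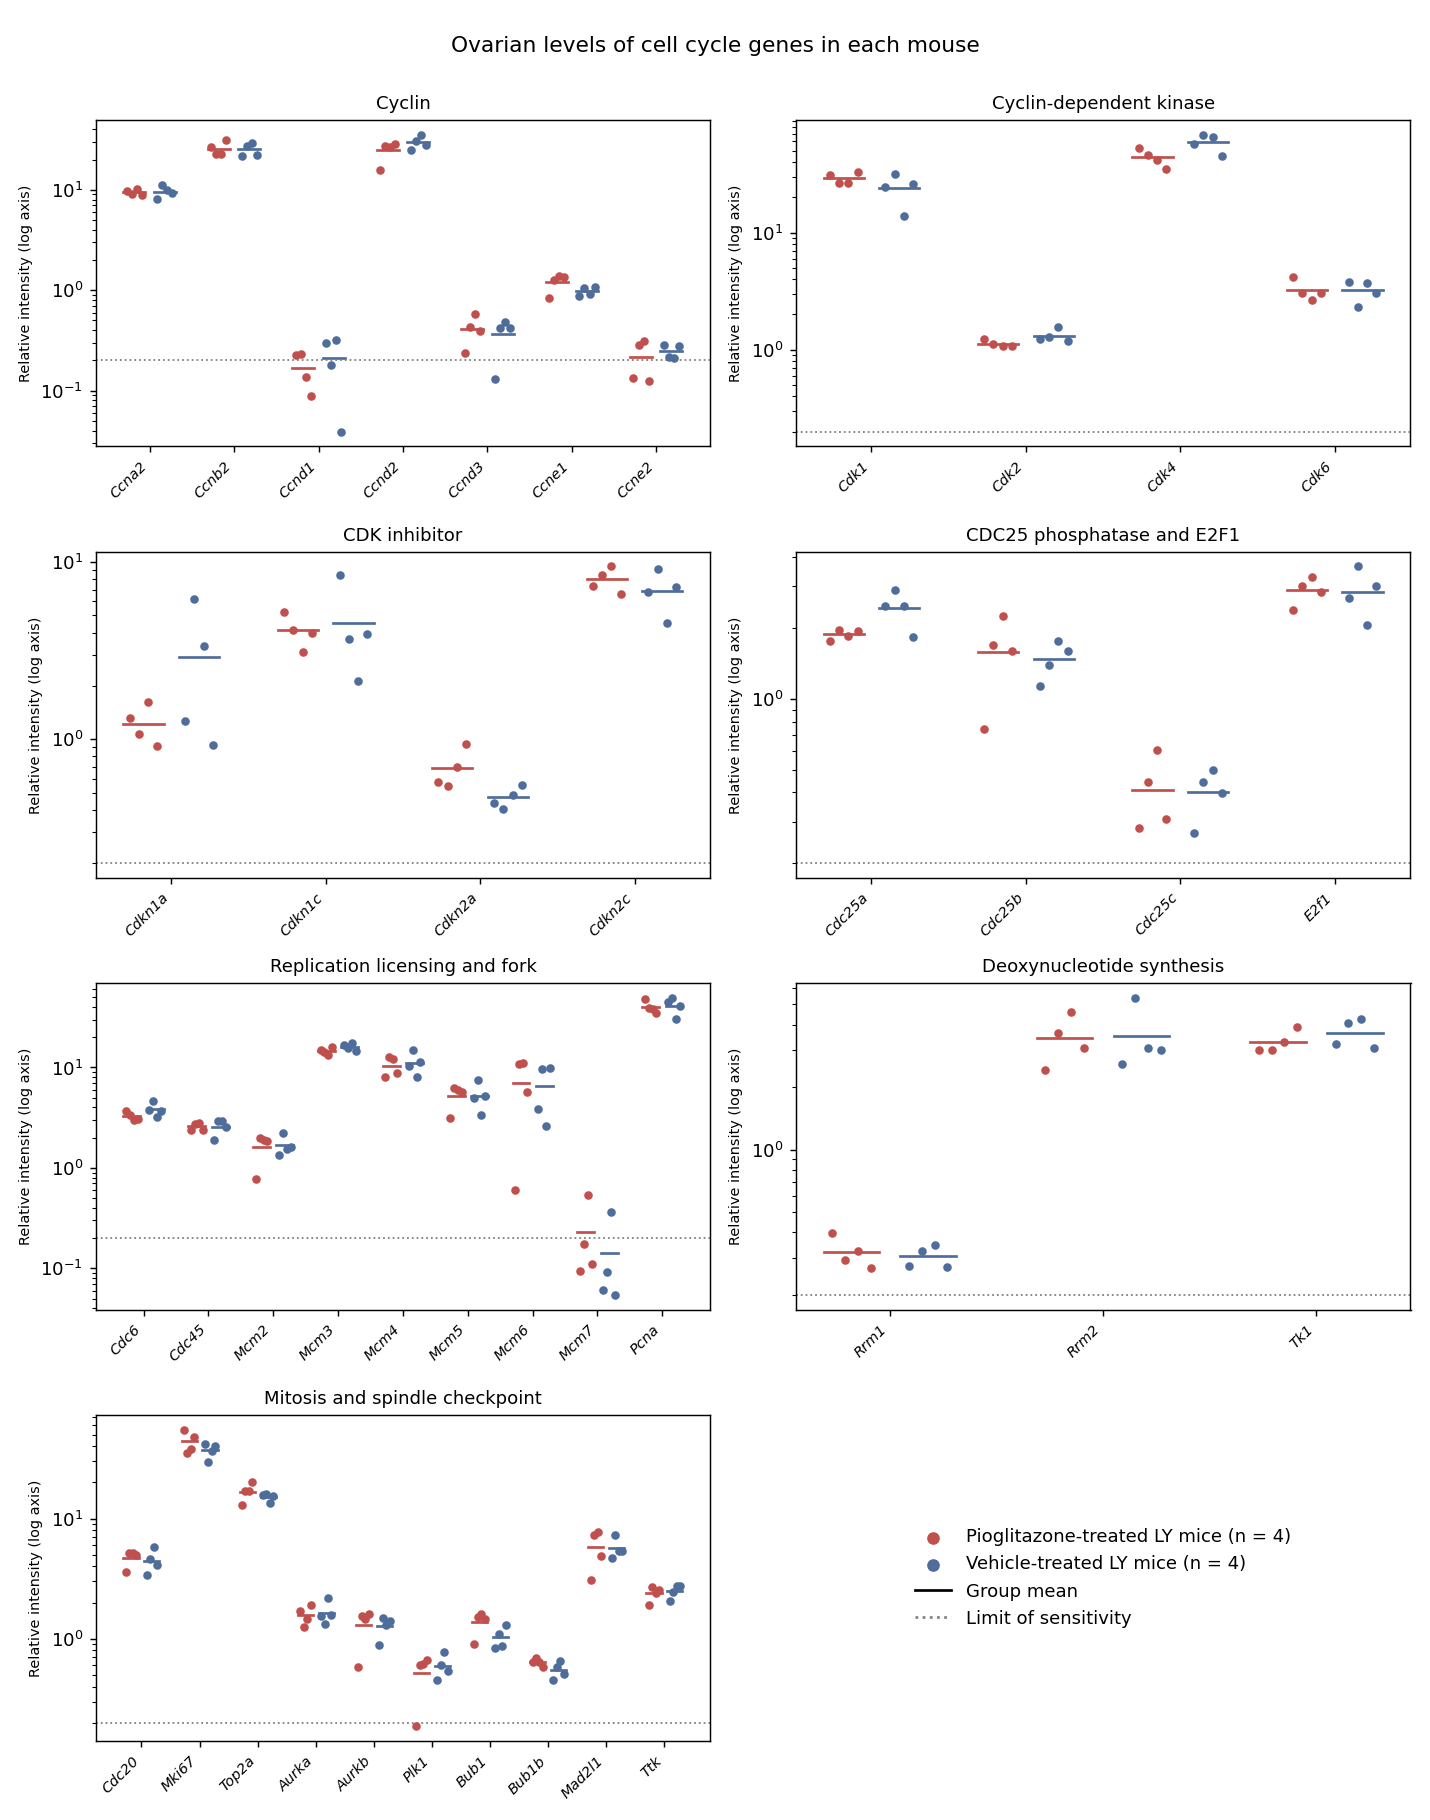
Relative intensity (log axis) of all 41 measured members in each mouse, by role, with pioglitazone-treated mice in red left of vehicle-treated mice in blue, group means as bars and the limit of sensitivity of 0.2 units as a dotted line. The groups overlap for every gene, and single low red points mark pioglitazone-treated mouse 1 for Ccnd2 (15.9 units), Mcm2 (0.781 units), Mcm6 (0.605 units), Aurkb (0.581 units) and Plk1 (0.187 units).

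The replication genes held no call among the 9 genes of licensing and the fork, whose median log2 fold change was -0.09. Pcna, the sliding clamp of the polymerases, read 47.9, 39.1, 38.0 and 35.3 units with pioglitazone, against 45.2, 49.1, 30.3 and 40.5 units with vehicle. The vehicle range enclosed the pioglitazone range. Cdc6, the loader of the MCM helicase, read 3.70, 3.37, 3.03 and 3.07 units with pioglitazone, against 3.78, 4.69, 3.19 and 3.67 units with vehicle, for a log2 fold change of -0.21 (SE 0.16), or -0.11 without vehicle-treated mouse 2. Its groups overlapped. A second Cdc6 probe lay under 0.2 units in every mouse and was not tested, at 0.0809 to 0.159 units with pioglitazone and 0.0512 to 0.0774 units with vehicle, so its groups did not overlap. Cdc45, which joins the helicase at the fork, lay at 2.40 to 2.82 units with pioglitazone and 1.92 to 2.93 units with vehicle.

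The MCM subunits form 1 ring, and their genes had unlike spreads across mice. Mcm3 read 14.9, 14.4, 13.2 and 16.1 units with pioglitazone, against 16.7, 15.5, 17.6 and 14.6 units with vehicle, a spread within each group of 1.22-fold with pioglitazone and 1.21-fold with vehicle. Mcm6 read 0.605, 10.8, 11.1 and 5.71 units with pioglitazone, against 3.88, 9.73, 2.63 and 9.98 units with vehicle, a spread of 18.4-fold with pioglitazone and 3.80-fold with vehicle. Thus Mcm3 was nearly level over all mice, where Mcm6 was low in pioglitazone-treated mouse 1 and, less so, in vehicle-treated mice 1 and 3. Mcm2 read 0.781, 2.01, 1.88 and 1.85 units with pioglitazone, against 1.34, 2.24, 1.54 and 1.61 units with vehicle. Mcm4 read 8.07, 12.8, 12.1 and 8.77 units with pioglitazone, against 10.3, 14.9, 8.09 and 11.3 units with vehicle. Mcm5 read 3.12, 6.21, 5.95 and 5.69 units with pioglitazone, against 4.92, 7.51, 3.38 and 5.14 units with vehicle. In these 3 subunits pioglitazone-treated mouse 1 was also the lowest of its group and vehicle-treated mouse 2 the highest of its own. The 2-group comparison of Mcm6 gave a log2 fold change of -0.31 (SE 0.89), and without pioglitazone-treated mouse 1 the sign turned, to 0.65, so it has no settled direction.

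Mcm7 lay near or under the limit of sensitivity and read 0.0942, 0.176, 0.534 and 0.111 units with pioglitazone, against 0.0608, 0.0911, 0.360 and 0.0546 units with vehicle. Mouse 3 was highest in each group, the only one above 0.2 units. The log2 fold change was 0.79 (SE 0.69, limma, unadjusted p = 0.278), and blocking on the replicate number lowered the unadjusted p to 0.00108. With values under 0.2 units raised to 0.2 it shrank to 0.14 (unadjusted p = 0.688). It was 1.40 without vehicle-treated mouse 3 (unadjusted p = 0.0363), 0.49 without vehicle-treated mouse 4 and 1.58 with array weights (unadjusted p = 0.0202). Each pioglitazone-treated mouse read above the vehicle-treated mouse of the same number, and 6 of the 8 values were below the limit of sensitivity. The mean of Mcm7 was 0.229 units with pioglitazone and 0.142 units with vehicle, so it entered the test only through the pioglitazone group. The labels do not say what the number stands for, and these p-values are not read as a difference. The values of Mcm2, Mcm4, Mcm5 and Mcm6, and those given below for Top2a, Aurka, Plk1, Aurkb and Mad2l1, were chosen for display after they were seen.

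**Figure D3:**
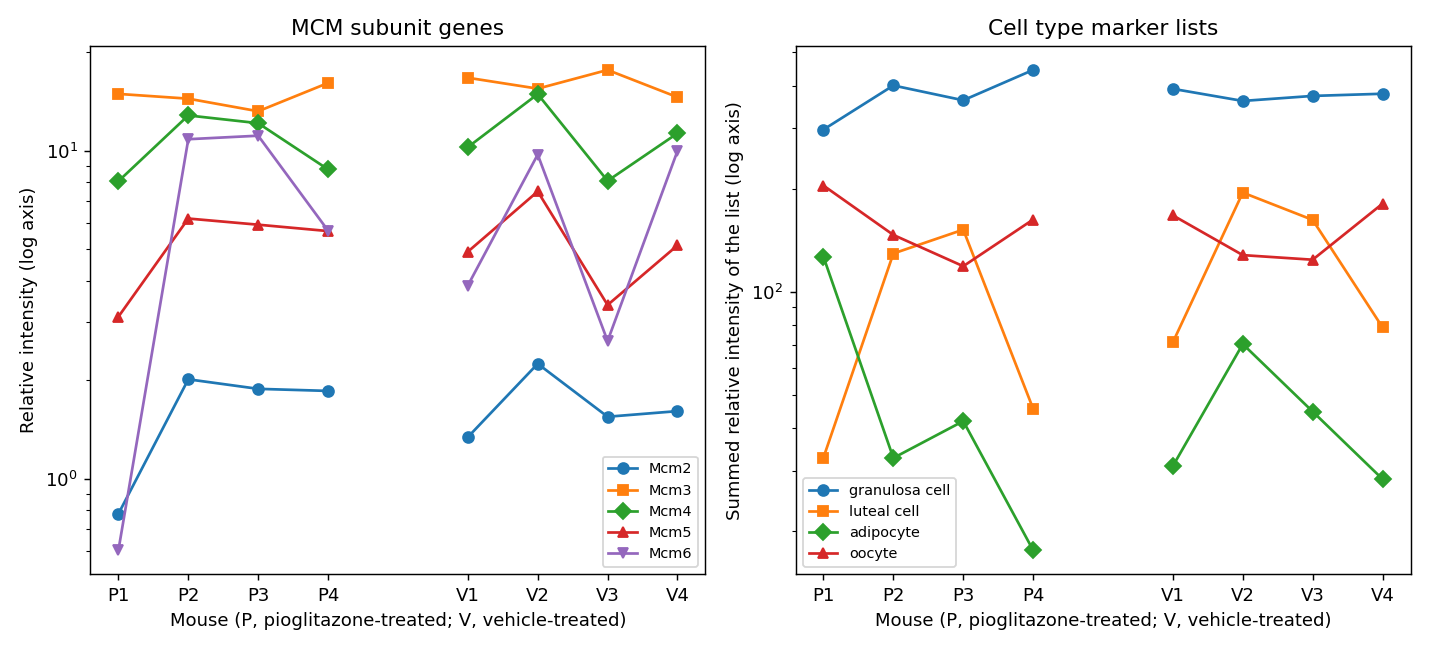
Left, relative intensity (log axis) of 5 MCM genes in pioglitazone-treated mice P1 to P4 and vehicle-treated mice V1 to V4; right, summed relative intensity (log axis) of 4 marker lists in the same mice, lines only joining the points of a gene or list. Mcm6 is lowest in P1 at 0.605 units and Mcm3 stays between 13.2 and 17.6 units, while the luteal sum is lowest (32.8 units) and the adipocyte sum highest (126 units) in P1.

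Of the 3 genes of deoxynucleotide synthesis none was called. Rrm1, the large subunit of ribonucleotide reductase, read 0.398, 0.294, 0.325 and 0.268 units with pioglitazone, against 0.276, 0.327, 0.348 and 0.273 units with vehicle. Rrm2, the small subunit made in S phase, read 2.43, 3.65, 4.59 and 3.07 units with pioglitazone, against 2.58, 5.37, 3.10 and 3.00 units with vehicle. Both genes overlapped fully between groups, with Rrm1 highest in pioglitazone-treated mouse 1 and Rrm2 lowest there. Tk1, the thymidine kinase of dividing cells, read 3.01, 3.01, 3.28 and 3.91 units with pioglitazone, against 3.21, 4.09, 4.26 and 3.09 units with vehicle. The pioglitazone values of mice 3 and 4 lay within the vehicle range, and those of mice 1 and 2 just below it. A second Tk1 probe read 1.66, 2.13, 2.95 and 3.30 units with pioglitazone, against 1.93, 3.09, 2.25 and 2.31 units with vehicle, with no call either.

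The 10 genes of mitosis and the spindle checkpoint had a median log2 fold change of 0.02 and no call. Mki67, the proliferation marker Ki-67, read 55.1, 34.9, 38.2 and 47.6 units with pioglitazone, against 41.6, 29.4, 36.6 and 40.5 units with vehicle. Mice 1 and 4 were the higher 2 of both groups, and the difference of 0.24 (SE 0.19, log2) did not pass (limma, unadjusted p = 0.242). It was 0.12 without pioglitazone-treated mouse 1 and 0.13 without vehicle-treated mouse 2. Top2a, which untangles chromosomes before they separate, read 12.9, 17.1, 16.9 and 20.3 units with pioglitazone, against 15.8, 16.0, 13.5 and 15.6 units with vehicle. Pioglitazone-treated mice 2, 3 and 4 lay above all vehicle-treated mice and mouse 1 below them, for a log2 fold change of 0.13 (SE 0.16). This value was 0.25 without pioglitazone-treated mouse 1, 0.03 without pioglitazone-treated mouse 4 and 0.07 without vehicle-treated mouse 3. A second Top2a probe stayed at or below 0.110 units in every mouse.

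Bub1, a kinase of the spindle checkpoint, read 0.904, 1.52, 1.61 and 1.46 units with pioglitazone, against 0.842, 1.09, 0.870 and 1.30 units with vehicle. Its pattern was that of Ccne1, with 3 pioglitazone-treated mice above every vehicle-treated mouse and pioglitazone-treated mouse 1 among the lower vehicle values. The log2 fold change was 0.41 (SE 0.23, unadjusted p = 0.102), and 0.60 (unadjusted p = 0.0114) without pioglitazone-treated mouse 1. Bub1 was called in 2 of 21 alternatives, over which its log2 fold change ran from 0.32 to 0.60. Bub1b, which encodes the checkpoint protein BubR1, read 0.638, 0.692, 0.646 and 0.587 units with pioglitazone, against 0.451, 0.587, 0.657 and 0.511 units with vehicle, for a log2 fold change of 0.23 (SE 0.15), or 0.14 without vehicle-treated mouse 1. Vehicle-treated mice 2 and 3 reached into the pioglitazone range. A second Bub1 probe stayed at or below 0.207 units in every mouse.

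Plk1, a kinase of mitotic entry and spindle assembly, read 0.187, 0.607, 0.615 and 0.665 units with pioglitazone, against 0.457, 0.607, 0.781 and 0.537 units with vehicle. Aurkb, the kinase of the chromosomal passenger complex, read 0.581, 1.54, 1.45 and 1.61 units with pioglitazone, against 0.879, 1.48, 1.31 and 1.41 units with vehicle. Mad2l1, the checkpoint protein that holds back the anaphase-promoting complex, read 3.11, 7.29, 7.75 and 4.93 units with pioglitazone, against 4.67, 7.29, 5.36 and 5.41 units with vehicle. All 3 genes were lowest in pioglitazone-treated mouse 1 and, within the vehicle group, lowest in mouse 1. Cdc20, the activator of that complex, was lowest in the same mice, at 3.60 to 5.18 units with pioglitazone and 3.40 to 5.80 units with vehicle, and Ttk, a checkpoint kinase, lay at 1.93 to 2.71 units with pioglitazone and 2.06 to 2.75 units with vehicle. Aurka, the centrosomal kinase, read 1.71, 1.24, 1.47 and 1.91 units with pioglitazone, against 1.53, 1.33, 2.18 and 1.57 units with vehicle, from its brighter probe. The second Aurka probe read 0.384, 1.41, 1.46 and 1.34 units with pioglitazone, against 0.711, 1.37, 1.31 and 1.16 units with vehicle, and was low in pioglitazone-treated mouse 1 where the brighter one was not, so the 2 probes disagree.

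Across the set, the mice also differed within each group. Pioglitazone-treated mouse 1 was the lowest of its group for 21 of 41 members (51.2%), against 19.2% of 30504 probes with values in all mice, and it was the highest for 49.2% of those probes. Vehicle-treated mouse 1 was the lowest of its group for 17 members (41.5%), against 19.6% of probes. Vehicle-treated mouse 2 was the highest for 17 members (41.5%), against 18.7% of probes, and pioglitazone-treated mouse 3 for 15 (36.6%), against 20.4%. A value under 0.5 of the median of the other mice in the group was counted next. In pioglitazone-treated mouse 1 it was found for Ccne2, Cdc25b, Mcm2, Mcm6, Aurkb, Plk1 and Mad2l1, that is 7 of 41 members, against 5.59% of probes. In vehicle-treated mouse 1 it was found for 3 of 41 members, Ccnd3, Cdkn1a and Mcm6, against 2.8% of probes. Vehicle-treated mouse 3 had 1 such member, against 7.38% of probes. Mouse 4 had 2 in each group, against 2.33% of probes with pioglitazone and 1.22% with vehicle. Pioglitazone-treated mice 2 and 3 and vehicle-treated mouse 2 had none, against 0.8%, 1.89% and 1.77% of probes. A range of at least 2-fold within a group was seen in 11 members with pioglitazone (26.8%, against 17.8% of probes) and in 10 with vehicle (24.4%, against 22.6%). These shares describe the mice and carry no test.

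Of the marker lists, the luteal one was lowest in mouse 1 of each group, with mouse 4 of each group next. Mouse 4 was the lowest of its group for 24.4% of members with pioglitazone and 22.0% with vehicle, beside 24.6% and 24.5% of probes. The summed luteal markers were 32.8, 129, 152 and 45.5 units in pioglitazone-treated mice 1 to 4 and 71.2, 195, 162 and 78.7 units in vehicle-treated mice 1 to 4, lowest in mouse 1 of each group, and so was their mean log2 level. The summed granulosa cell markers were 298, 401, 363 and 445 units in pioglitazone-treated mice 1 to 4 and 392, 361, 373 and 379 units in vehicle-treated mice 1 to 4, lowest in pioglitazone-treated mouse 1 and highest in vehicle-treated mouse 1 within their groups. Hsd3b1 carried this low value, and without it the granulosa sums were 185, 230, 147 and 241 units in pioglitazone-treated mice 1 to 4 and 174, 136, 132 and 182 units in vehicle-treated mice 1 to 4, lowest in mouse 3 of each group. The summed adipocyte markers were 126, 32.7, 41.9 and 17.6 units in pioglitazone-treated mice 1 to 4 and 31.0, 70.3, 44.6 and 28.3 units in vehicle-treated mice 1 to 4, highest in pioglitazone-treated mouse 1, in ovaries that had been cleaned of fat at dissection. The oocyte markers summed to 204, 147, 119 and 163 units in pioglitazone-treated mice 1 to 4 and 167, 128, 124 and 181 units in vehicle-treated mice 1 to 4. This sum was highest in pioglitazone-treated mouse 1 as well. By mean log2 level, which weighs markers alike, pioglitazone-treated mouse 1 was again highest for adipocyte markers (1.78). For oocyte markers vehicle-treated mouse 4 was highest (2.49, against 2.48 in pioglitazone-treated mouse 1). The granulosa level was 2.82 in pioglitazone-treated mouse 1 and 2.83 in mouse 3, and within the vehicle group highest in mouse 4 (2.86). The part of these cell types in the levels of the members was not tested. By the group comparison at an unadjusted p under 0.05, the higher markers were 1 of 13 granulosa cell and 1 of 9 theca and stroma markers. So were 2 of 8 lymphocyte and 1 of 6 oviduct markers, beside 1.97% of all probes. The oviduct marker, Dnah5, averaged 0.270 units with pioglitazone and 0.178 units with vehicle. It entered the test only through the pioglitazone group, so its call is not read as a difference. The lower markers were 1 of 17 oocyte and 1 of 8 lymphocyte markers, beside 3.53%. None of the 9 luteal cell, 7 adipocyte, 8 macrophage or 2 red blood cell markers was called. Median log2 fold changes were 0.30 for granulosa cell, 0.26 for oviduct and 0.13 for red blood cell markers. They were -0.35 for luteal cell and -0.22 for macrophage markers, and from -0.02 to 0.02 for the other lists. Differences of whole lists between groups were not tested.

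**Figure D4:**
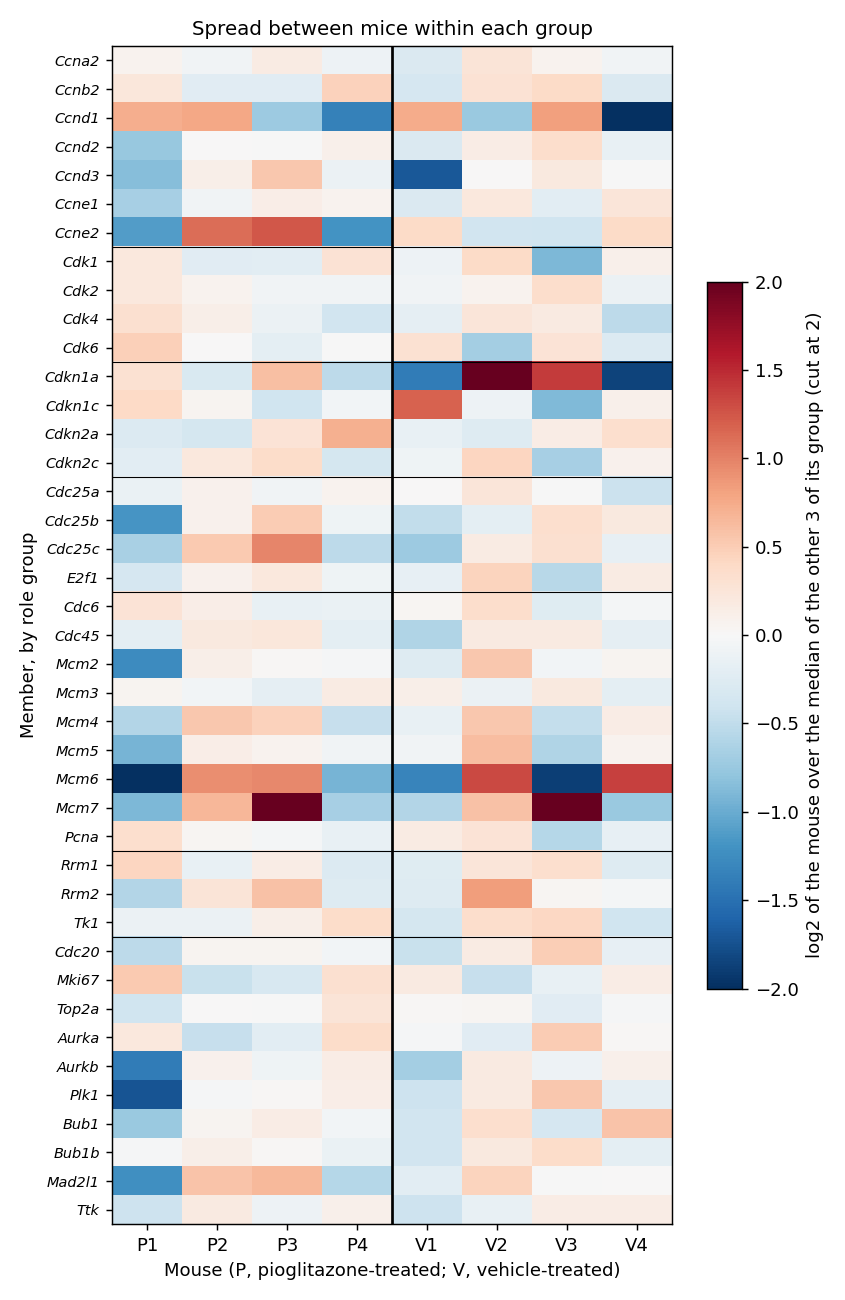
Each member's level in each mouse relative to the median of the other 3 mice of its group, as log2 (colour, cut at 2), for pioglitazone-treated mice P1 to P4 and vehicle-treated mice V1 to V4. P1 is the lowest of its group for 21 members and V1 for 17; Mcm6 in P1 is the deepest of the blue cells of the MCM genes.

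Pioglitazone-treated mouse 1 was singled out for its low values in many of these same members. Without it the number of members called was 4 (9.76%), beside 7.98% of all probes in the same fit. They were Ccne1, Cdkn2a and Bub1 as higher and Cdk4 as lower, and the median log2 fold change of the members was 0.11. The same 4 (10.0%) were called with mouse 1 of both groups left out, a choice made after the data had been seen, beside 4.82% of all probes. Leaving out vehicle-treated mouse 4 also gave 4 calls (9.76%, beside 6.98%), Cdk4, Cdkn1a, Cdkn2a and Cdc25a. Without pioglitazone-treated mouse 2 there was 1 call (2.44%, beside 4.8%), and without vehicle-treated mouse 3 there were 2 (5.0%, beside 4.52%). No member was called without pioglitazone-treated mouse 3 or 4 or vehicle-treated mouse 1 or 2. None of these passed the adjustment over all probes.

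The rest of the pathway was read the same way. Lists of other E2F and RB genes, further cyclins and CDK partners, origin licensing and polymerases, mitotic regulators and checkpoint genes held 134 genes, of which 124 had a probe and 121 were tested. At an unadjusted p under 0.05 none was higher and 3 were lower (2.48%), beside 5.5% of all probes, and their median log2 fold change was 0.03. E2f4, a repressive E2F factor of resting cells, read 8.15, 7.78, 7.53 and 5.41 units with pioglitazone, against 9.73, 9.03, 12.9 and 8.32 units with vehicle. Its groups did not overlap, and the log2 fold change was -0.47 (SE 0.19, limma, unadjusted p = 0.0377). Lin37, a subunit of the DREAM complex that E2f4 joins, read 17.3, 14.3, 15.1 and 11.5 units with pioglitazone, against 17.9, 21.9, 23.9 and 15.7 units with vehicle. Pole2, the accessory subunit of DNA polymerase epsilon, read 2.24, 3.22, 2.46 and 1.84 units with pioglitazone, against 3.23, 4.39, 2.82 and 3.09 units with vehicle. Lin37 and Pole2 overlapped between groups, with log2 fold changes of -0.45 (unadjusted p = 0.0406) and -0.48 (unadjusted p = 0.0465). Apart from E2f4, groups that did not overlap were found for E2f2 and Spc25, both higher with pioglitazone, and for Cdc16, which was lower, so 2 of 121 genes were separated upwards and 2 downwards, beside 1.46% and 3.13% of all probes. All 3 calls had an adjusted p of 0.837 in limma.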

How the data were processed

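Ovarian RNA of 4 pioglitazone-treated and 4 vehicle-treated LY mice was hybridised, 1 CodeLink array per mouse. The deposited table holds linear intensity values. The authors subtracted background with the CodeLink software and scaled every slide to its median; a further scaling of genes to their own medians, named in the methods, was not seen in the values. Codes for missing spots (47 to 211 per array) were read as missing.

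All arrays were scaled once more to a median of 1, a floor of 0.05 was set, and log2 was taken. To enter the test, probes needed 3 or more values per group and a mean of 0.2 or more in either group. The methods call 0.2 the limit of sensitivity. Groups were compared with limma 3.58.1 in R 4.3.3 (lmFit, eBayes), with Benjamini-Hochberg adjustment over 30634 probes, and single genes also with a 2-sided exact permutation test. The model was checked on simulated arrays. The 4 arrays per group limit the precision.

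Members and lists were chosen with earlier results of these data known. Within each role group, values of every mouse were given for the brightest member, the 3 members with the smallest p, and any with groups apart, and of the other lists for genes at an unadjusted p under 0.05. The values of further members were chosen after they were seen, as the report states.

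Arrays with the same replicate number correlated, after removal of group means, at 0.515, 0.181, 0.274 and 0.232, so the number was also used as a block. Nothing in the labels says what the number stands for. Alternatives were other floors, normalizations, filters, variance models, array weights, the methods' t-test, a mean over probes, and arrays left out. Promoters came from RefSeq, build GRCm38.p6, which held 36 of the 44 members. The annotation gave a single gene name to 21615 of 36227 probes, several names to 681 and no name to 13931. Ages and doses are those of the labels.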

Additional observations from a re-analysis of the deposited data

Results flagged for a closer look

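Dixon's ratio on log2 values was taken for each member in each group, 82 sets in all. In 8 of these sets, 1 mouse stood apart from the other 3. For a single set chance gives about 1 in 20. The sets share the same mice and are not independent, so this rate cannot judge the count of 8. Pioglitazone-treated mouse 1 was the low one for 6 genes. They were Ccnd2, the granulosa cell cyclin, at 15.9 units, Mcm2 at 0.781 units and Mcm5 at 3.12 units of the MCM helicase, Cdc20 at 3.60 units, the mitotic kinase gene Aurkb at 0.581 units and Plk1 at 0.187 units. Vehicle-treated mouse 1 stood low for Ccnd3, at 0.131 units, and vehicle-treated mouse 3 for Top2a, at 13.5 units.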

How the results depend on the processing

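Over 21 alternatives the median log2 fold change of the members stayed between -0.11 and 0.11. The number of members called was 2 with all mice (4.88%, beside 5.5% of all probes). It was 1 (2.44%) after cyclic loess normalization, after quantile normalization and with no filter on dim probes. The probe shares there were 5.05%, 4.86% and 5.02%. The count was 3 (7.32%) with array weights (Cdkn2a, Mcm7 and Bub1b), an intensity trend (Cdk4, Cdkn2a and Cdc25a) or the replicate block. The probe shares in these fits were 6.77%, 5.49% and 8.6%. The methods' t-test called Cdkn2a and Cdc25a (4.88%, beside 6.95% of probes). The number of members called lay between 0 and 4 (0.0% to 9.76%) when single mice were left out, beside 2.41% to 7.98% of probes. It was 4 (10.0%, beside 4.82% of probes) with both mice numbered 1 left out, an alternative chosen after seeing the data. The 3 called pathway genes (2.48% of 121) became 1 of 121 after quantile normalization. With single mice left out they became 0 to 5, of 121 or 122 tested. The 1685 probes called became 2635 with the replicate block and 740 to 2445 with single mice left out, and no alternative gave an adjusted call. The block changed the call of Mcm7 and of no other member. Of all called probes 35.8% were higher with pioglitazone, against 46.4% after quantile and 46.8% after cyclic loess normalization.

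Cdk4 lost its call in 11 of 21 alternatives and Cdkn2a in 4. With single mice left out, the log2 fold change ran from -0.75 to 0.65 for Mcm6 and from -0.51 to 0.11 for Plk1, both turning positive without pioglitazone-treated mouse 1, and from -0.17 to 0.50 for Ccnd3, which turned negative without vehicle-treated mouse 1. Mcm6 was also positive with both mice numbered 1 left out (0.48), and Plk1 with array weights (0.019). The causes were not tested. In all, 23 members changed sign somewhere, none with a p under 0.05. Values near 0.2 units, as for Mcm7 and Ccnd1, are limited by signal over background.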
